A study of Drosophila melanogaster with 12 samples.

Results

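Muscle structural genes encode the proteins of the contractile apparatus: the myosin chains, the actins, the tropomyosins and the troponins. Probes annotated to 10 such genes (Mhc, Mlc1, Mlc2, Act57B, Act87E, Act88F, Tm1, Tm2, up and wupA) were sought by gene symbol among 14485 probes for 11980 named genes. The annotation named a probe for 6 of the 10 genes. These gave 7 probes, 1 each for Mlc1, Mlc2, up, Act88F and Act87E and 2 for Tm2, which are told apart by their reporter numbers, 1000038666 and 1000039777. Mhc, Act57B, Tm1 and wupA were not analysed here.

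The study concerned Dichaete, a SoxB transcription factor, in the ventral midline of the Drosophila melanogaster nervous system. Females carrying simGal4, a driver active in midline cells, were crossed to males carrying UAS-EnRep, UAS-Dichaete WT, UAS-HMG- or, as the control, UAS-GFP, so that every collection, controls included, carried the driver and 1 UAS construct. Total RNA came from whole embryos grown at 25 °C and collected at 3.5 to 4.5 h, labelled stage 8 to 9, so most of the cells sampled lay outside the domain of the driver. Each construct was hybridised against GFP RNA on 4 two-colour arrays, 12 in all, described as independent biological replicates. Construct RNA carried Cy3 on replicates 1 and 2 and Cy5 on replicates 3 and 4, so dye orientation and replicate number cannot be told apart. The labels do not say whether the GFP RNA of different arrays came from separate collections. In the series' design text the term for the constructs is dominant negative, and EnRep and HMG- are not described further.

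In the Drosophila embryo the body wall muscles arise from mesodermal myoblasts, which are specified by factors such as twist and later fuse into fibres. The genes of the sarcomere are switched on as those fibres differentiate, which happens after the stages named in the labels. Transcripts of myosin, troponin and tropomyosin genes in a whole-embryo collection therefore serve as markers of embryos with differentiating muscle. Nothing in the files measures the age of the embryos directly, and in RNA from whole embryos more cells of a type and more RNA per cell cannot be told apart.

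Mlc1 encodes the alkali light chain of muscle myosin. On EnRep replicates 1 to 4 its log2 ratio of construct over GFP was -1.05, -0.58, -1.83 and 2.00. On Dichaete WT replicates 1 to 4 it was 1.60, 2.12, -0.83 and -2.19. On HMG- replicates 1 to 4 it was -0.19, 0.59, -1.54 and -0.16. Each construct therefore had arrays on both sides of 0, and the ratios of the 3 constructs overlapped. At the extremes, Mlc1 was 4.36-fold higher in construct RNA on Dichaete WT replicate 2 and 4.56-fold higher in GFP RNA on Dichaete WT replicate 4, both of them arrays of the same construct.

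The gene up encodes troponin T, the subunit that ties the troponin complex to tropomyosin on the thin filament. Its log2 ratios were -0.51, 0.24, -1.45 and 2.02 on the EnRep arrays in order of replicate. They were 1.98, 2.57, -0.76 and -2.18 on the Dichaete WT arrays. On the HMG- arrays they were 0.45, 1.16, -1.15 and -0.04. The arrays with the 3 highest values, EnRep replicate 4 and Dichaete WT replicates 1 and 2, were the same as for Mlc1, and so were the 3 lowest, Dichaete WT replicate 4, EnRep replicate 3 and HMG- replicate 3.

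Mlc2, the regulatory light chain of muscle myosin, had log2 ratios of -0.55, -0.23, -0.19 and 1.93 on the EnRep arrays. On the Dichaete WT arrays these were 0.62, 0.60, -0.68 and -0.34, and on the HMG- arrays 0.14, 0.25, -0.59 and -0.31. EnRep replicate 4 again stood highest and Dichaete WT replicates 1 and 2 followed. The other arrays lay between -0.68 and 0.25.

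Tm2 encodes a muscle tropomyosin, the coiled coil that lies along the actin filament, and its 2 probes differed. Probe 1000039777 gave -0.93, -0.58, -0.38 and 0.86 on the EnRep arrays. It gave 0.68, 1.02, -0.11 and -1.06 on the Dichaete WT arrays, and -0.47, 0.12, -0.68 and -0.41 on the HMG- arrays. Its 3 highest arrays were those of Mlc1 and up. Probe 1000038666 stayed between -0.15 and 0.40 on all 12 arrays and was above 0 on 10 of them. Which Tm2 transcripts each probe detects is not given in the sources used here.

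The 2 actin probes varied little. Act88F encodes the actin of the adult flight muscle, and its log2 ratio ran from -0.42 on HMG- replicate 4 to 0.20 on EnRep replicate 2. It was above 0 on all 4 EnRep arrays and below 0 on all 4 Dichaete WT and all 4 HMG- arrays. Across all probes, 16.5% had the same sign on all 4 EnRep arrays, 14.3% on all 4 Dichaete WT arrays and 16.1% on all 4 HMG- arrays. Act87E, a further muscle actin gene, ran from -0.38 on Dichaete WT replicate 3 to 0.20 on EnRep replicate 2 and was above 0 on 8 of 12 arrays. These actin spots were dim. The raw foreground of Act88F was 1.34 to 2.31 times its local background, and that of Act87E 1.11 to 2.18 times, over both channels of all arrays. The spot finder accepted both channels on 6 arrays for Act88F and on 4 for Act87E, against 11 for Mlc1, 12 for Mlc2, 12 for up, 12 for Tm2 probe 1000038666 and 8 for Tm2 probe 1000039777. Actin genes are near copies of each other, so their probes may share signal.

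**Figure D1:**
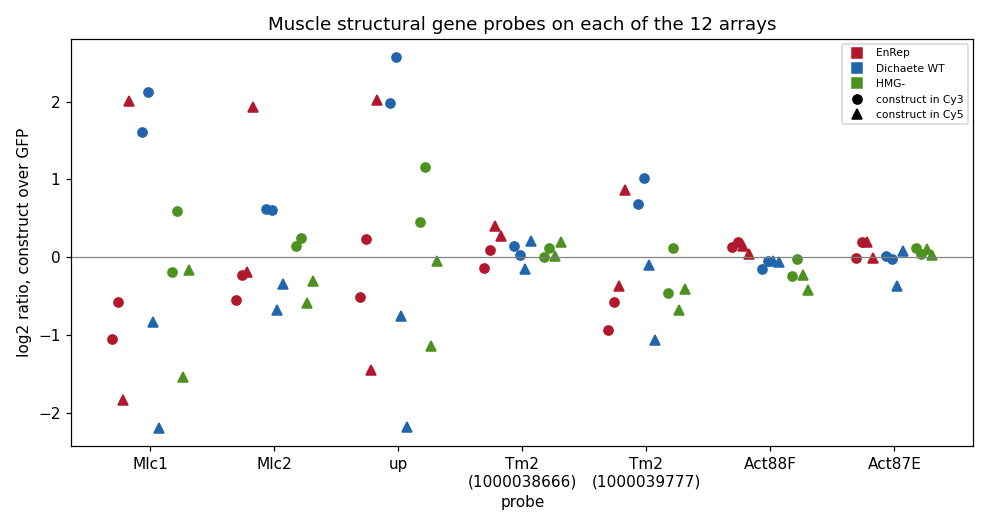
Log2 ratio of construct over GFP for each of the 7 muscle structural probes (horizontal axis) on each of the 12 arrays (points), coloured by construct and shaped by the dye that carried construct RNA. Mlc1, Mlc2, up and Tm2 probe 1000039777 spread widely within each construct, whereas Tm2 probe 1000038666, Act88F and Act87E stayed between -0.42 and 0.40.

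The first comparison asked whether a construct changed these transcripts relative to GFP. No member probe passed for any construct in limma's test with Benjamini-Hochberg adjustment over all probes at 0.05, where 0.753% of all probes passed for EnRep, 0.863% for Dichaete WT and 0.856% for HMG-. Median log2 ratios over the 7 probes were 0.09, 0.06 and -0.13 for EnRep, Dichaete WT and HMG-, against medians over all probes of 0.010, 0.0068 and -0.0022. For Mlc1 the fitted mean was -0.36 in EnRep (SE 0.62, 95% interval -1.70 to 0.97, n = 4, limma adjusted p = 0.842). In Dichaete WT Mlc1 was at 0.18 (interval -1.16 to 1.51, limma adjusted p = 0.912) and in HMG- at -0.33 (interval -1.66 to 1.00, limma adjusted p = 0.887). For up the means were 0.07, 0.40 and 0.10, each with an SE of 0.59 (limma adjusted p = 0.975, 0.779 and 0.971). The interval of up in EnRep, -1.19 to 1.34, leaves room for a change of more than 1 log2 either way.

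Means of Mlc2 were 0.24, 0.05 and -0.13 in EnRep, Dichaete WT and HMG-, each with an SE of 0.34, and those of Tm2 probe 1000039777 were -0.26, 0.13 and -0.36 with an SE of 0.31. For both probes limma adjusted p ran from 0.692 to 0.957. Tm2 probe 1000038666 had means of 0.16, 0.06 and 0.08 with an SE of 0.09. Act87E had 0.09, -0.08 and 0.07 with an SE of 0.08. Act88F came nearest to the threshold, at -0.23 in HMG- (SE 0.07, interval -0.38 to -0.07, limma adjusted p = 0.181), and lay at 0.13 in EnRep and -0.08 in Dichaete WT. With array quality weights that Act88F value was -0.29 and passed (limma adjusted p = 0.0150), the sole call of a member in a construct comparison under any alternative tried. The share of all probes called for HMG- in that setting is not given here. Over all settings, 9 to 1098 probes of the whole array were called for HMG-, and the Act88F spots were dim.

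**Figure D2:**
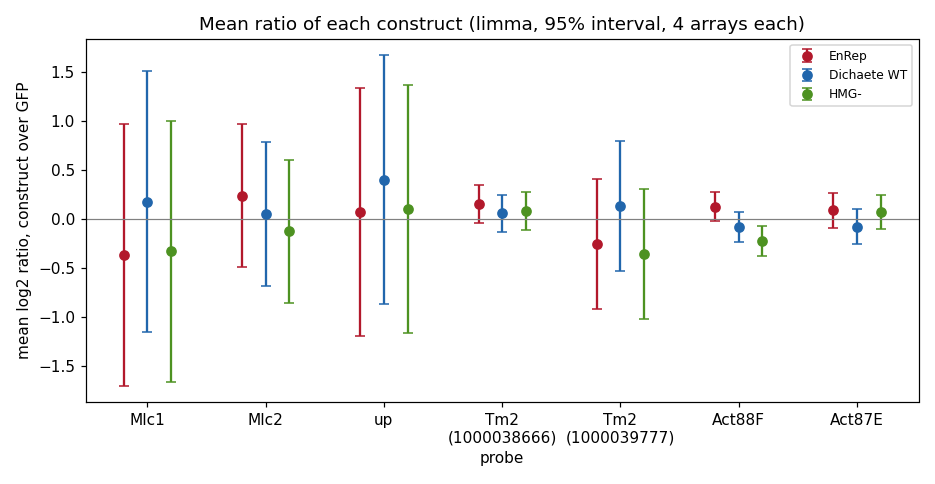
Mean log2 ratio of construct over GFP (vertical axis) from the limma fit for each of the 7 muscle structural probes (horizontal axis), with 95% intervals from 4 arrays per construct. The intervals of Mlc1, Mlc2, up and both Tm2 probes include 0 for all constructs, and the single interval that excludes 0, Act88F in HMG-, did not pass after adjustment.

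Differences between constructs were tested in the same fit. No member passed in EnRep minus Dichaete WT, HMG- minus Dichaete WT or EnRep minus HMG-, where 0.0207%, 0% and 0.0276% of all probes passed in limma. At an unadjusted p below 0.05 there were 0 member probes in the first and second contrast and 1 in the third, against 4.47%, 5.27% and 6.85% of all probes. That probe, Act88F, was 0.35 log2 higher in EnRep than in HMG- (SE 0.10, interval 0.14 to 0.57, limma adjusted p = 0.543). For Mlc1 the 3 differences were -0.54, -0.51 and -0.04, each with an SE of 0.87.

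Single arrays decided the means of the variable members. Without EnRep replicate 4 the EnRep mean of Mlc1 went from -0.36 to -1.47 (limma adjusted p = 0.124) and that of up from 0.07 to -0.95 (limma adjusted p = 0.320). That of Mlc2 went from 0.24 to -0.43 and that of Tm2 probe 1000039777 from -0.26 to -0.73 (limma adjusted p = 0.294 and 0.232). For Dichaete WT, Mlc1 moved from 0.18 to -0.33 without replicate 2 and to 0.84 without replicate 4, and up from 0.40 to -0.11 and to 1.08. None of these values passed.

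The spread around the construct means set these members apart in size from most of the array. The residual SD, which measures how far arrays of 1 construct scatter after the dye term, was 1.54 log2 for Mlc1 and 1.46 for up, ranks 27 and 37 from the top among 14485 probes. It was 0.84 for Mlc2 and 0.75 for Tm2 probe 1000039777, ranks 235 and 286. The median over all probes was 0.19. Tm2 probe 1000038666, Act87E and Act88F had residual SDs of 0.17, 0.14 and 0.10, below that median. Of the 7 probes, Mlc1, up and Tm2 probe 1000039777 exceeded 1 log2 on at least 1 array and fell below -1 on at least 1 other, which 1.26% of all probes did.

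No member passed for the dye term. The gap between arrays with construct RNA in Cy5 and those with it in Cy3 was -1.17 log2 for Mlc1 and -1.57 for up (limma adjusted p = 0.223 and 0.0911), and the dye term passed for 33.1% of all probes. Within Dichaete WT all of Mlc1, Mlc2, up and Tm2 probe 1000039777 were above 0 on both Cy3 arrays and below 0 on both Cy5 arrays. Within HMG- the Cy3 arrays were both above the Cy5 arrays for Mlc2 and up, and for Tm2 probe 1000039777 and Mlc1 they overlapped. Within EnRep the highest array for each of these probes was a Cy5 array.

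Each array's ratio joins the level in construct RNA to the level in GFP RNA, and the raw channel intensities show which of the pair moved. For Mlc1 the raw foreground in construct RNA was 604 and 793 on EnRep replicates 1 and 2, 1277 and 6602 on Dichaete WT replicates 1 and 2, and 1429 and 1150 on HMG- replicates 1 and 2, all in Cy3. In Cy5 it was 363 and 3375 on EnRep replicates 3 and 4, 458 and 320 on Dichaete WT, and 483 and 944 on HMG-. The construct channel thus held both the brightest and the dimmest Mlc1 spots of each dye. In GFP RNA the Cy3 foreground of Mlc1 was 879 and 1082 on EnRep replicates 3 and 4, 627 and 1086 on Dichaete WT, and 1213 and 1040 on HMG-. The Cy5 foreground in GFP RNA was 1019 and 1024 on EnRep replicates 1 and 2, 744 and 1554 on Dichaete WT, and 1529 and 914 on HMG-. All 12 GFP readings lay between 627 and 1554, or 4.83 to 12.9 times their local background. The value of 4.83 came from Dichaete WT replicate 1, where the spot finder rejected both channels of the Mlc1 spot. Mlc1 signal was thus also present in the GFP sample of every other array.

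For up the raw foreground ran from 266 to 6011 in construct RNA and from 415 to 1063 in GFP RNA, where it was 3.98 to 11.3 times local background. The brightest reading of up was again Dichaete WT replicate 2 and the dimmest EnRep replicate 3, both in construct RNA. Mlc2 ran from 622 to 2104 in construct RNA and from 544 to 1121 in GFP RNA. Tm2 probe 1000039777 ran from 167 to 627 and from 159 to 306, and its GFP signal was 1.39 to 2.84 times local background. Raw readings of different arrays also carry differences in labelling and scanning.

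After normalisation between arrays the same held within each dye. The Mlc1 level in construct RNA spanned 3.19 log2 over 6 Cy3 arrays, from 9.20 on EnRep replicate 1 to 12.39 on Dichaete WT replicate 2, against a span of 0.62 in GFP RNA read in Cy3. In Cy5 it spanned 4.38 log2, from 7.71 on Dichaete WT replicate 4 to 12.09 on EnRep replicate 4, against 0.83 in GFP RNA. The level of up spanned 3.55 and 4.23 log2 in construct RNA in Cy3 and Cy5, against 0.64 and 0.55 in GFP RNA. The GFP level of Mlc1 and up therefore varied less over arrays than the construct level. Whether the GFP readings come from 1 pool of RNA or from separate collections is not given, and in the former case their span holds no variation between collections.

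Mlc2 spanned 1.49 and 2.23 log2 in construct RNA and 0.61 and 1.43 in GFP RNA, in Cy3 and Cy5. Tm2 probe 1000039777 spanned 2.17 and 1.84 against 0.62 and 0.87. Over all probes the median span was 0.64 and 0.85 in construct RNA and 0.61 and 0.63 in GFP RNA. For Mlc1, up, Mlc2 and Tm2 probe 1000039777 the construct span exceeded the GFP span in both dyes under all 5 ways of scaling the channels that were tried, and for Mlc1 it was 3.06 to 4.66 log2 against 0.55 to 0.92. The same order held for Act88F, at 0.31 to 0.91 log2 against 0.17 to 0.55, and in 5 of 10 combinations of dye and scaling for each of Act87E and Tm2 probe 1000038666.

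Counted over the whole array, 224 of 14485 probes (1.55%) had a construct span wider than the GFP span by over 1 log2 in both dyes. Mlc1 and up were the 2 members among them. No probe had a GFP span wider by over 1 log2 in both dyes. Other scalings gave 185 to 257 probes with the wider construct span, and 0 to 34 with the wider GFP span, the 34 with raw foreground minus background. The 6 construct readings of a dye come from 3 constructs and the 6 GFP readings from 1 genotype, so a span in construct RNA also contains any difference between constructs. This count was made after the members' values had been seen.

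**Figure D3:**
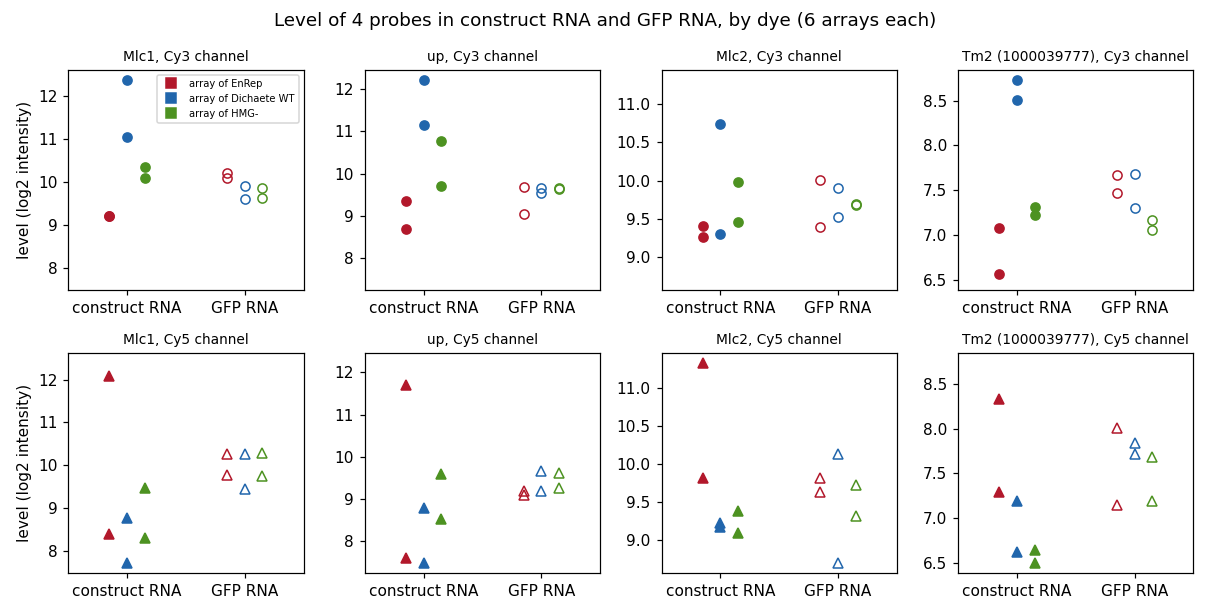
Normalised level in log2 intensity (vertical axes) of Mlc1, up, Mlc2 and Tm2 probe 1000039777, in Cy3 (upper row) and Cy5 (lower row), with construct RNA as filled and GFP RNA as open symbols and 6 arrays in each set, coloured by the construct of the array. Mlc1 and up spread over 3.19 to 4.38 log2 in construct RNA and over 0.55 to 0.83 in GFP RNA, with Dichaete WT replicate 2 highest in Cy3 and EnRep replicate 4 highest in Cy5.

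The next question was whether the members moved together from array to array. All 21 pairs of the 7 probes were correlated over 12 arrays, with p-values from permutation and adjusted over the 21 pairs. Mlc1 and up had Pearson's r = 0.98 and Spearman's rho = 0.97 (permutation, adjusted p = 0.00021 for both, the smallest that 100000 permutations can give over 21 pairs). Without the 2 arrays farthest from the median of Mlc1, Dichaete WT replicate 2 and EnRep replicate 4, r was 0.98. It was 0.996 over the 6 arrays with construct RNA in Cy3 and 0.994 over the 6 in Cy5 (exact permutation p = 0.0014 for each, the smallest that 6 arrays allow). The 2 genes thus kept the same order of arrays to within a few exchanges.

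Among Mlc1, Mlc2, up and Tm2 probe 1000039777, r ran from 0.77 to 0.98 over the 6 pairs and rho from 0.72 to 0.97, and all 6 passed (permutation, adjusted p from 0.00021 to 0.0370). The lowest r was that of Mlc2 with up, 0.77, and was 0.80 without EnRep replicate 4 and Dichaete WT replicate 1. Within a dye, the 3 pairs that include Mlc2 had r of 0.94 to 0.95 in Cy3 and 0.83 to 0.85 in Cy5, where the exact permutation p was 0.103 to 0.108 and did not pass. The 2 Tm2 probes had r = 0.16 and rho = 0.20 with each other (permutation, adjusted p = 0.986 and 0.948). No pair that involved Tm2 probe 1000038666, Act88F or Act87E passed. The ratios on an array share its RNA samples and its normalisation, and permuting the arrays ignores construct and dye. Members were chosen with earlier results of these data known, so the p-values of these pairs are a description. How many pairs of other probes correlate as highly is not given here.

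**Figure D4:**
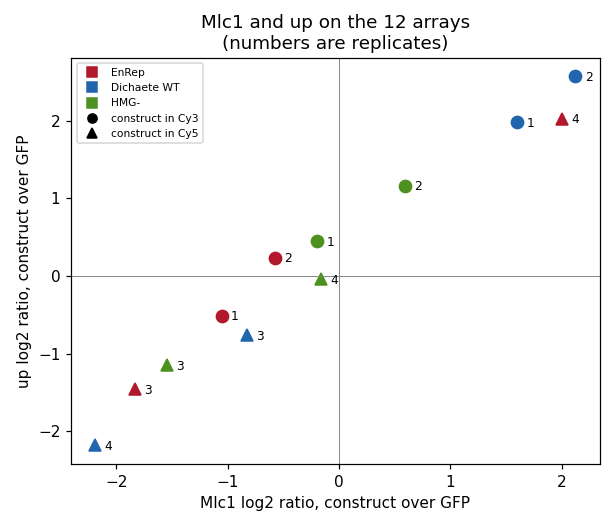
Log2 ratio of construct over GFP of Mlc1 (horizontal axis) against that of up (vertical axis) on the 12 arrays, coloured by construct, shaped by the dye of construct RNA and numbered by replicate. The points of all 3 constructs and both dyes lie along 1 line (r = 0.98), with EnRep replicate 4 beside Dichaete WT replicates 1 and 2 at the upper end.

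The median log2 ratio of the 7 members on an array was used as a summary. It was -0.51, 0.09, -0.19 and 0.86 on EnRep replicates 1 to 4, 0.62, 0.60, -0.38 and -0.34 on Dichaete WT, and 0.0068, 0.12, -0.59 and -0.16 on HMG-. Medians over all probes stayed within 0.0081 of 0 on every array. EnRep replicate 4 and Dichaete WT replicates 1 and 2 thus stood above the other 9 arrays. On these 3 arrays, 3, 2 and 3 of the 7 member probes exceeded 1 log2, against 2.75%, 1.63% and 2.62% of all probes. On EnRep replicate 3, Dichaete WT replicate 4 and HMG- replicate 3, 2, 3 and 2 members fell below -1, against 0.670%, 0.877% and 0.842% of all probes. These arrays were picked by the members' own values, so the shares are a description. The median ran from -0.59 to 0.86, against -2.19 to 2.12 for Mlc1. Tm2 probe 1000038666, Act88F and Act87E correlated with it at r = 0.35, 0.09 and 0.04. That Tm2 probe gave the median on EnRep replicate 2 and HMG- replicate 1, and Act87E on Dichaete WT replicate 3. A slope on the median is thus not a multiple of the change in Mlc1.

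Genes most like the members were taken as the 8 non-member named genes, among 6223 named probes brighter than the median probe, with the highest Pearson correlation with that member median over 12 arrays. They were 14-3-3zeta (r = 0.96), Phk-3 (0.96), vkg (0.94), Muc11A (0.94), Dhpr (0.94), bt (0.94), CG5177 (0.94) and Mal-A3 (0.94). Of these, bt encodes a giant titin-like protein of muscle, vkg a chain of collagen IV, Muc11A a mucin, Mal-A3 a maltase and Dhpr dihydropteridine reductase. On EnRep replicate 4 and Dichaete WT replicates 1 and 2, bt had log2 ratios of 1.95, 1.35 and 1.56, and on the other 9 arrays it lay between -1.18 and 0.24. For vkg the 3 values were 1.58, 0.69 and 1.15, with the others from -1.40 to -0.19. These genes were chosen for their likeness, so the correlations are a description.

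To ask how many transcripts followed the members, each other probe was regressed on the member median beside construct and dye terms, an analysis added after the members' values had been seen. In limma, 715 of 14478 probes rose with the member median (4.94%) and 38 fell with it (0.262%). This rested on EnRep replicate 4: without that array 0 probes passed in either direction, 837 having an unadjusted p below 0.05. The same step raised the share of the member median's variance given by construct and dye from 17.3% to 58.8%. A setting tried after that result was seen, without EnRep replicate 4 and without the dye term, called 620 rising (4.28%) and 281 falling (1.94%). Of these 620, 405 were among the 715, which is 65.3% of the former and 56.6% of the latter. In that setting dye effects are not separated from the slope, and the dye term had passed for 33.1% of all probes. The construct terms alone then gave 14.3% of the member median's variance, against 58.8% with the dye term. An unadjusted limma p below 0.05 was then found for 4026 probes. Counts from that setting, also those for the gene lists below, may therefore include dye effects. Leaving out any other single array gave 615 to 731 rising.

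Of 27 probes for 19 other sarcomere and muscle fibre genes, 15 rose with the member median and 0 fell (55.6%, against 4.94% of all probes). Without EnRep replicate 4 and the dye term 13 rose (against 4.28%). Without that array but with the dye term, 0 probes of the whole array rose. All lists were chosen with earlier results of these data known, so their shares, here and below, are a description. The median slope was 0.69 log2 per log2 of the member median, which spanned less than Mlc1. Among the 15 were Mf, myofilin of the thick filament, with a slope of 3.00 (SE 0.35, limma adjusted p = 0.00014) and Mp20, a calponin-like muscle protein, with 2.70 (SE 0.30). Prm, paramyosin, had 2.15 (SE 0.24) and Mlp84B, a muscle LIM protein of the Z-disc, 1.60 (SE 0.20). These 4 were named after their values had been seen. SERCA, the calcium pump of the sarcoplasmic reticulum, had 1.02 (SE 0.15, limma adjusted p = 0.00061) on probe 1000041900.

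Several muscle genes with more than 1 probe were split, as Tm2 was. The SERCA probe 1000040008 had a slope of 0.13 (limma adjusted p = 0.681) beside the rising one. Argk1, arginine kinase, had 1.85 on probe 1000038232 and 0.34 on probe 1000032970 (limma adjusted p = 0.00036 and 0.111). Zasp66, a Z-disc protein, rose on probes 1000040872 and 1000040873 with slopes of 1.92 and 1.11, and had 0.22 and 0.02 on probes 1000037276 and 1000037275, which did not pass. Without EnRep replicate 4 and the dye term, probe 1000037276 rose too (slope 1.32, limma adjusted p = 0.0170). Both probes of TpnC73F, a troponin C gene, and both of Mf rose. The other 12 probes of the list did not pass, and 4 of its 27 slopes were not above 0. Argk1 and Zasp66 had the smallest p of the list in a construct comparison, at 0.42 in Dichaete WT for probe 1000032970 and 0.37 in EnRep for probe 1000037276, and neither passed (limma adjusted p = 0.078 and 0.096).

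No probe of the list of early muscle genes passed. Of 16 probes for myogenic transcription and fusion genes, 0 rose and 0 fell with the member median, 4 slopes were above 0 and the median slope was -0.13. Their list median stayed between -0.18 and 0.23 on every array. The slope of twi, the mesodermal determinant, was 0.07 (SE 0.17, limma adjusted p = 0.909), and its log2 ratio was -0.48 in Dichaete WT (limma adjusted p = 0.090), -0.27 in EnRep and -0.14 in HMG-. The slope of blow, a myoblast fusion gene, was -0.11, that of zfh1 0.14 and that of lbe 0.07, and none passed. Cytoplasmic actomyosin genes, which serve cells of all kinds, had 0 of 5 probes called, with Mlc-c, the non-muscle myosin light chain, at 0.04. Without EnRep replicate 4 and the dye term Mlc-c fell with the members (limma adjusted p = 0.0477), and 0 myogenic probes passed.

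Some probes for genes of other late tissues also rose. Larval midgut enzyme genes, mostly trypsin-like and Jonah proteases, had 7 of 11 probes rising and 0 falling, with a median slope of 1.83. Their list median was 2.51 on EnRep replicate 4, 0.93 and 1.59 on Dichaete WT replicates 1 and 2, and -0.61 to 0.40 on the other 9 arrays. Jon65Aiii rose with a slope of 2.83 (SE 0.40, limma adjusted p = 0.00053). Of this list, LManII, Jon99Ci, Mal-A1 and Jon25Bi had the smallest p in a construct comparison, and none passed there or on the slope over all arrays. Without EnRep replicate 4 and the dye term Jon99Ci rose (slope 1.14, limma adjusted p = 0.0032). Cuticle and Osiris genes, many of which serve the larval exoskeleton, had 34 of 133 probes rising and 0 falling (25.6%). Of its 4 genes with the smallest p in a construct comparison, Osi6 rose with a slope of 1.88 (SE 0.31, limma adjusted p = 0.0015), while Osi4 at -0.01, Cpr92F at 0.22 and Lcp65APsi at -0.25 did not pass. Late neuronal genes had 3 of 22 probes rising (13.6%), 1 each for nSyb, cpx and Gad1, which were named after their values had been seen. By smallest p in a construct comparison the late neuronal genes were Rdl, futsch, nAChRbeta1 and Snap25, and none of them passed on the slope. Rdl, a GABA receptor subunit, was 0.41 log2 lower in Dichaete WT than in GFP on probe 1000039590 (limma adjusted p = 0.043), with a slope of 0.21.

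Without EnRep replicate 4 and the dye term, 6 midgut probes (54.5%), 20 cuticle and Osiris probes (15.0%) and 1 late neuronal probe (4.55%) rose, against 4.28% of all probes. The late neuronal probe was then Rab3, not 1 of the 3 above. Of the 224 probes with the wider construct span, 10 belonged to the other sarcomere genes, 5 to the midgut enzymes and 28 to cuticle and Osiris genes, and 0 to the remaining 7 lists. None of the sarcomere, midgut or cuticle probes passed in a construct comparison.

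Among genes of the labelled stage and of earlier embryos few passed. Of 13 probes for stage 8 to 9 patterning genes 0 rose and 1 fell, ind, a neural columnar gene, with a slope of -0.43 (SE 0.11, limma adjusted p = 0.039). Without EnRep replicate 4 and the dye term ind did not pass, and 1 probe of the list rose (7.69%), that of D (limma adjusted p = 0.0170). D, which encodes Dichaete, had a slope of 0.18 on all arrays (limma adjusted p = 0.498). Dichaete WT embryos also carried UAS-Dichaete, and whether the D probe reads RNA of that construct is not given here. In the construct comparisons 1 of the 13 probes was called higher in Dichaete WT, where 0.863% of all probes were called. Blastoderm and cellularisation genes had 0 of 10 probes called, with tll at -0.44 (SE 0.14, limma adjusted p = 0.086) and Sry-alpha at 0.07, and 1 falling in that other setting, hb. The median slope was -0.19 in both the patterning and the blastoderm list, with 3 slopes above 0 in each. Maternal transcripts that are cleared early had 0 of 13 called. Both osk probes, for the oocyte determinant oskar, were 0.72 log2 higher in HMG- than in GFP (limma adjusted p = 0.024 and 0.038) and had slopes of -0.09 and -0.01. Adult female and egg chamber genes had 0 of 7 called, with Yp1, a yolk protein gene, at -0.37 (limma adjusted p = 0.330). The median of that list was -0.11, 0.06 and 0.04 on EnRep replicate 4 and Dichaete WT replicates 1 and 2.

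**Figure D5:**
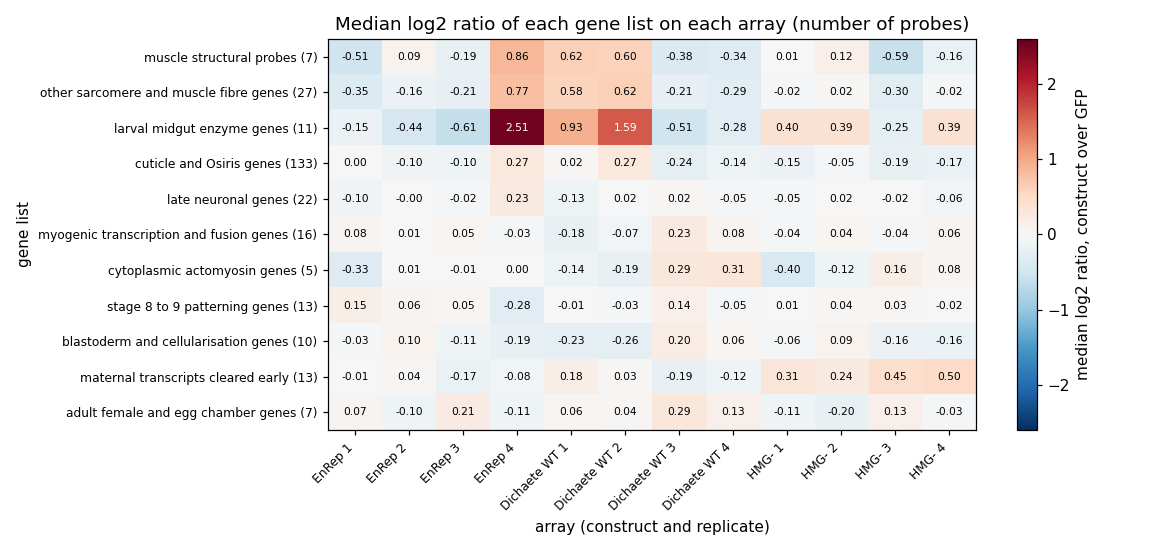
Median log2 ratio of construct over GFP (colour and number in each cell) of the 7 muscle structural probes and of 10 other gene lists (rows, number of probes in brackets) on each of the 12 arrays (columns). The muscle, other sarcomere and larval midgut rows are highest on EnRep replicate 4 and Dichaete WT replicates 1 and 2, with midgut medians of 2.51, 0.93 and 1.59. The patterning and blastoderm rows stay between -0.28 and 0.20. On those arrays the blastoderm row is at its lowest, -0.19, -0.23 and -0.26, and the patterning row is at -0.28, -0.01 and -0.03.

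Residuals over all probes correlated at -0.51 to 0.67 between arrays of different construct and replicate number (36 pairs, median 0.03). The highest was EnRep replicate 4 with Dichaete WT replicate 2, both with high members, and EnRep replicate 2 with Dichaete WT replicate 3 (0.51) and EnRep replicate 1 with Dichaete WT replicate 4 (0.50) came next. The median spot of an array had a foreground of 247 to 433 and a background of 71 to 130 in the Cy3 channel, and of 280 to 421 and 112 to 196 in the Cy5 channel. The number of arrays limits the precision. On the single array where the Mlc1 spot was rejected, Dichaete WT replicate 1, both channels were rejected and its log2 ratio was 1.60. Without that spot the Dichaete WT mean of Mlc1 was -0.14. Whether collections with high muscle transcripts held older embryos was not tested.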

How the data were processed

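The deposited array files hold spot intensity as the median over pixels, foreground and local background in either dye, not normalised, per the file headers. The series table holds log2 ratios of construct over GFP made by the authors; the submitters' processing notes name limma, with no version, and their normalisation is not given in the sources used here. Its columns' medians ran from -0.034 to 0.019, and their correlation with raw Cy5 over Cy3 ran from -0.874 to -0.736 where construct RNA was in Cy3 and from 0.699 to 0.857 where it was in Cy5, as the labelled dyes require.

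Further steps used limma 3.58.1 in R 4.3.3. Background was corrected by normexp (offset 50) on all 18240 spots of an array, followed by global loess on the 14569 spots in the series table; the other 3671 were not analysed here. Spots of 1 reporter were averaged to 14485 probes, of which 12574 carry 1 gene symbol, 96 several and 1815 none. Channel levels were scaled by loess and Aquantile. Each probe was fitted with 3 construct means and 1 dye orientation term (8 residual degrees of freedom) and empirical Bayes variances, two-sided, adjusted over all probes of a comparison at 0.05. Fold values undo the log2.

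All member probes were named, with up to 4 genes of each other list by smallest p in a construct comparison (not all are reported), the 8 genes most like the members and the genes marked in the text. Members and lists were chosen with earlier results of these data known. Alternatives changed background, offset, normalisation, filter, dye term, block, weights, variance prior and arrays, used the deposited ratios, or averaged the probes of a gene. The construct fit and the slope fit of the reported setting were tested on simulated data. The outcome is not given here, so it is no evidence on how these fits behave on the real arrays. No such test is given for the differences between constructs or for the alternatives. The same holds for the slope without EnRep replicate 4 and the dye term. Array files hold no columns of other samples.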

Additional observations from a re-analysis of the deposited data

Results flagged for a closer look

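In 24 groups of 4 arrays, 7 member probes and their median in each of the 3 constructs, the highest and lowest array were compared with the nearest other. Mlc2 on EnRep replicate 4, with a log2 ratio of 1.93, was the sole array set apart. The nearest EnRep array was at -0.19, and the gap was 0.854 of the range of the 4 arrays. Chance alone sets apart about 1 in 20 such groups. Mlc1 (2.00), up (2.02) and Tm2 probe 1000039777 (0.86) were also highest on that array within EnRep, by gaps that were smaller shares of their ranges.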

How the results depend on the processing

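The count of called members stayed at 0 in 149 of 150 combinations of an alternative setting with 1 of the 6 comparisons. The exception was HMG- with array weights, which called 1 (Act88F). Counts over all probes ran from 4 to 349 for EnRep, 6 to 465 for Dichaete WT and 9 to 1098 for HMG-. Of 489 alternative values of single members, 25 changed sign, none of them passing. In HMG-, Act87E was at -0.14 without background correction, -0.0083 with print-tip loess and -0.24 with the deposited ratios, and Mlc1 at 0.085 with array weights. In EnRep, up was at -0.055 with median centring, -0.0066 with the deposited ratios and -0.53 with array weights, Act87E at -0.053 with the deposited ratios, and Mlc2 at -0.14 with array weights. In Dichaete WT, Mlc2 was at -0.046 with median centring and Mlc1 at -0.14 with accepted spots only. The cause was not tested. Leaving out 1 array at a time gave EnRep means of -1.47 to 0.11 for Mlc1, -0.95 to 0.59 for up, -0.43 to 0.57 for Mlc2 and -0.73 to 0.050 for Tm2 probe 1000039777. Dichaete WT means ran from -0.33 to 0.84 for Mlc1, -0.11 to 1.08 for up, -0.13 to 0.29 for Mlc2, -0.15 to 0.53 for Tm2 probe 1000039777 and -0.14 to 0.027 for Act87E. HMG- means ran from -0.24 to 0.015 for Mlc2 and -0.13 to 0.28 for up. Probes falling with the member median, 38 in the setting reported, numbered 103 with median centring, 11 without a dye term, 151 with print-tip loess and 281 without the dye term and EnRep replicate 4. With each array left out in turn, 0 to 57 fell and 0 to 731 rose, the 0 in both cases without EnRep replicate 4. Residuals of the same replicate number in different constructs correlated at -0.64 to 0.24 (median -0.12), against a median of 0.03 for different numbers. Arrays of the same number also share a dye orientation, so this comparison cannot settle whether replicate numbers pair the arrays. With the replicate block in place of the dye term, called members stayed at 0. Dim spots limit Act88F, Act87E and Tm2 probe 1000039777, and 4 arrays per construct limit Mlc1 and up.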
